A study of Homo sapiens with 9 samples.

Results

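The cytosolic ribosomal protein genes encode the proteins of the large (RPL) and small (RPS) subunit of the ribosome that translates nuclear mRNAs. Members were chosen by symbol from the table of all genes: RPL or RPS names with a number, together with RPSA, RPLP0, RPLP1 and RPLP2, and without the S6 kinase genes. Of 20323 genes in the table, 84 symbols on 86 rows met this rule, 52 of the large and 32 of the small subunit. RPL22 and RPL26 each stood on a second row with almost no counts, and the row with the larger sum was kept. A filter on low counts left 82 of the 84, and RPL3L and RPL10L did not pass it.

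The study used HKC-8, an established human proximal tubular epithelial cell line, in 9 bulk poly(A) RNA libraries in 3 groups of 3. By the labels, Wnt1_KP6 cells received a plasmid for Wnt1, a secreted ligand that acts through beta-catenin, together with KP6. The titles of this group read p-Wnt1-kl and do not name KP6, so the treatment label alone gives the agent. From knowledge outside the labels, KP6 is the name of a peptide derived from Klotho. Wnt1 cells received the Wnt1 plasmid alone, and control cells received the empty vector pcDNA3. The series title names Wnt/beta-catenin and ATF3 signalling and mitophagy in the passage from acute to chronic kidney injury. All groups share the cell line and a transfected vector, the labels give neither a time after transfection nor a peptide dose, and they do not state whether replicates came from separate cultures. The p-values below therefore measure the spread between these libraries, which may be technical.

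A ribosome holds its proteins in fixed proportion, and cells keep their synthesis in step mostly at the level of translation. Mammalian ribosomal protein mRNAs begin with a C followed by a run of pyrimidines, the terminal oligopyrimidine (TOP) motif. Through this motif the protein LARP1 holds TOP mRNAs back from translation when the kinase complex mTORC1 is inactive, so their translation can change with no change in mRNA. MYC is known to raise transcription of ribosomal protein genes and of the factors that assemble ribosomes. RNA counts, the only readout here, do not show translation.

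The motif that most members share is seen in the windows of 30 bases around annotated transcript starts. The windows run from 10 bases before the start and were taken from RefSeq (GRCh38.p14). Capitals mark an unbroken run of at least 5 pyrimidines that begins with C within 5 bases of the start. The first 5 windows below are from core members of both subunits and the stalk. They are followed by the pairs RPL22 and RPL22L1, RPL26 and RPL26L1, and RPS27 and RPS27L, in which the name ending in L1 or L is the diverged copy.
RPL12, chr9:127451387-127451416, minus strand: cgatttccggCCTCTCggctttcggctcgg
RPLP0, chr12:120201092-120201121, minus strand: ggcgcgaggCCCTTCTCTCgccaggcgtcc
RPL7A, chr9:133348208-133348237, plus strand: attccCTTTCCTTTCTCTCTCCTCCCgccg
RPS6, chr9:19380217-19380246, minus strand: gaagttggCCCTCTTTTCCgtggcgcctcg
RPL39, chrX:119791611-119791640, minus strand: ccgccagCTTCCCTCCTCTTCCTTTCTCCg
RPL22, chr1:6199576-6199605, minus strand: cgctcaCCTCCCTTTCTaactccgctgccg
RPL22L1, chr3:170870176-170870205, minus strand: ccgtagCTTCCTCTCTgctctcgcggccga
RPL26, chr17:8383174-8383203, minus strand: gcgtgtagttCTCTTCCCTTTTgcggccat
RPL26L1, chr5:172958719-172958748, plus strand: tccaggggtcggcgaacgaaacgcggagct
RPS27, chr1:153990752-153990781, plus strand: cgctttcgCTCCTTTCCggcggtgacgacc
RPS27L, chr15:63157458-63157487, minus strand: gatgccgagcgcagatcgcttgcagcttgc

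Of the 84 members, 67 had a start window in the table. A run as defined above lay within 5 bases of the start in 51 of the 67 (76.1%), against 21.1% of 35116 RefSeq promoters. In 43 members (64.2%) the start base itself was a C that led a stretch of at least 5 pyrimidines, whatever base stood before it, against 4.07% of all promoters. Among the diverged copies the run was found in 1 of 5, RPL22L1, and not in RPL26L1, RPL7L1, RPS27L or RPL10L. Leaving out the diverged copies, it was found in 50 of 62 (80.6%). The core windows shown above all hold it. Core members such as RPL10, RPL6, RPL9 and RPS26 do not hold it within 5 bases of the start, so its absence there is not particular to the diverged copies. Further from the start, however, the windows of RPL10, RPL9 and RPS26 do hold such a run. The windows of RPL6, RPL26L1, RPL7L1, RPS27L and RPL10L hold none at any place. The letters CTTTC, searched within 20 bases of the start, occurred on the transcribed-sense strand in 29 of 67 members (43.3%) and on the other strand in 1 (1.49%), against 5.64% and 4.3% of all promoters. A match describes these letters in the window and is no test of LARP1 binding. The lack of a match says only that the letters are not within the distance searched from the annotated start.

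Facts of the whole series that touch the members are these. Library totals ran from 21199078 to 27507623 expected counts, and 13153 genes passed the filter and were tested. WNT1 had 1, 2 and 0 counts in the libraries labelled Wnt1_KP6, 0 in all 3 labelled Wnt1 and 0 in all 3 control libraries. The counts therefore do not show the overexpression that the labels give, and each direction below rests on the labels alone. Replicate 1 of all 3 groups lay at -38.8 to -37.4 on the first principal component (38.1% of the variance) and the other 6 libraries at 9.21 to 25.1. The share of mitochondrial transcripts was 5.18% to 5.72% in replicate 1 and 7.01% to 7.97% in the others. Of the kidney epithelium markers 6 of 8 were over 1 CPM on average, among them PAX8 (662 CPM) and the cadherin CDH2 (127 CPM). The 8 summed to 1508 to 1993 CPM per library. PAX2 (0.12 CPM) and the cadherin CDH1 (0.03 CPM, at 0 in 5 libraries) were under 1 CPM. Of the proximal tubule markers only GGT1 was over 1 CPM (154 CPM), with SLC22A6 at 0 in all libraries and LRP2 at 0 in 8 of 9.

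Ribosomal protein mRNAs were abundant in these cells: the 84 genes held 9.20% to 12.2% of the summed FPKM of a library. Leaving out the 7 diverged copies, the 77 core members had a median of 539 FPKM (quartiles 387 and 872), averaged over all libraries. FPKM, deposited by the authors, scales counts to gene length and library size, so that levels of different genes can be set side by side. Of the 77, 74 were over 100 FPKM. The 5 members with the most counts held 23.5% and the 10 with the most held 38.6% of all member counts.

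The highest was RPS2 (uS5, on the small subunit near the mRNA entry), at 3329, 2659 and 2551 FPKM in the libraries labelled Wnt1_KP6, 3291, 2789 and 2829.6 in those labelled Wnt1 and 2647, 2675 and 3092 in control. RPL12, a protein at the base of the stalk, was at 2445, 1811 and 1843 FPKM in the libraries labelled Wnt1_KP6, 2444, 1984 and 1939.8 in those labelled Wnt1 and 2224, 2066 and 2137 in control. RPLP0, the stalk base protein often used as a reference gene in PCR, was at 2289, 1817 and 1753 FPKM in the libraries labelled Wnt1_KP6, 2206, 1860.5 and 1965 in those labelled Wnt1 and 2127, 1927 and 2006 in control. In all 3 genes replicate 1 was the highest library of both plasmid groups, and the groups overlapped. Next came RPL7A at 1645 and RPL8 at 1349 FPKM on average. RPL3, at the peptidyl transferase centre, averaged 1277 FPKM, RPL41, the shortest ribosomal protein, 1256 FPKM, and RPL10, which joins the subunit late in the cytoplasm, 997 FPKM. RPSA, also known as the laminin receptor, averaged 967 FPKM.

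The lowest core member was RPL23A, which sits at the exit of the peptide tunnel, at 7.72, 8.11 and 6.67 FPKM in the libraries labelled Wnt1_KP6, 7.56, 8.81 and 7.01 in those labelled Wnt1 and 7.96, 7.28 and 8.19 in control. All libraries were close together, far under the median of the core members. The gene with the most named pseudogenes in the GENCODE annotation was also RPL23A, with 91 of the 1144 named for 77 members, and reads shared with such copies can be divided between them in an expected count. Across 82 members log10 mean FPKM and the number of named pseudogenes had a Pearson's r of 0.0005 (Spearman's rho 0.23), which does not show how reads of a single gene were divided. RPL12, with 50 named pseudogenes, averaged 2099 FPKM. The next lowest core member was RPS10 with 44.8 FPKM, and 39.4% of its exon bases overlap the read-through gene RPS10-NUDT3 on the same strand. RPS28 had 75.8 FPKM, and 21.4% of its exon bases overlap genes on the opposite strand, which a kit not stated to keep strand cannot separate. What the pseudogenes and these overlaps contribute to the low levels was not tested.

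**Figure D1:**
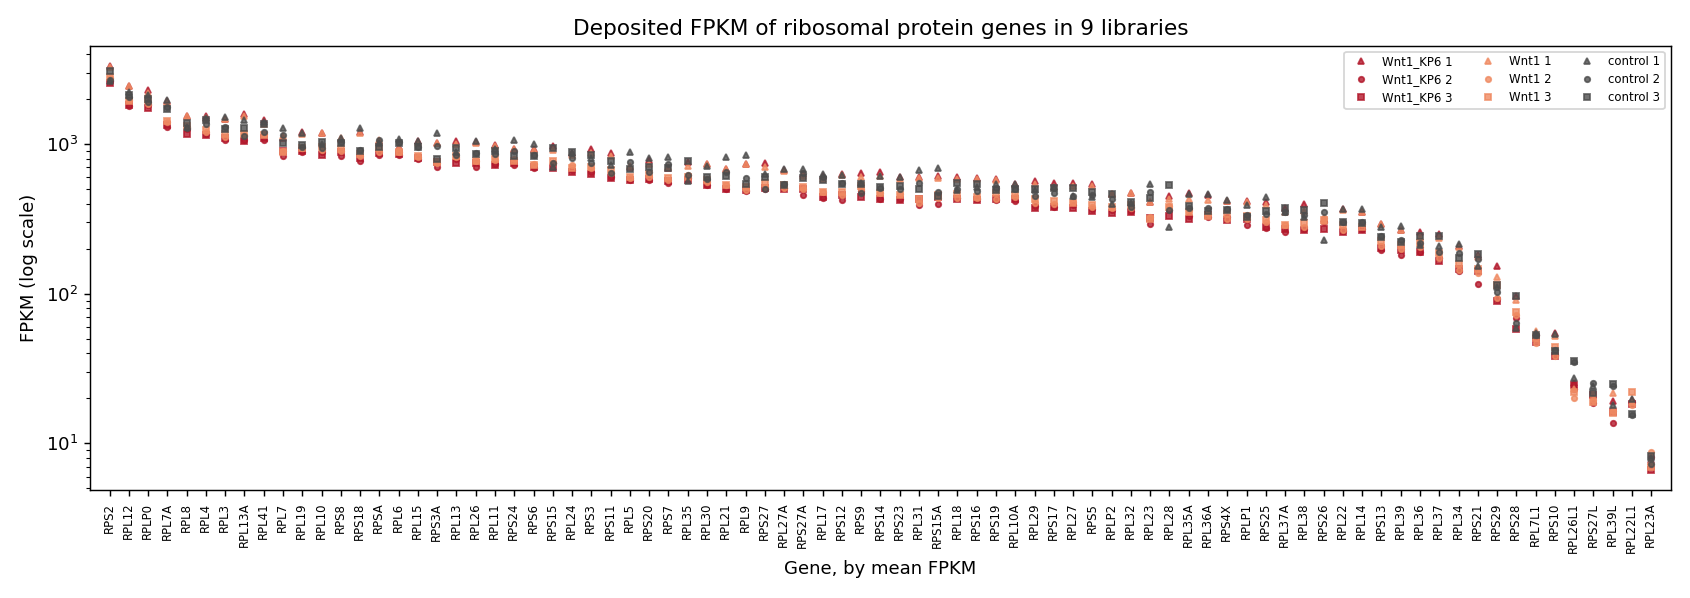
Deposited FPKM (log axis) of ribosomal protein genes in each of 9 libraries, genes ordered by mean, colours for groups and symbols for replicates. RPS2 stands at the left end at 2874 FPKM on average, the core members have a median of 539 FPKM, and the diverged copies shown, RPS10 and RPL23A (7.70 FPKM) form the right end.

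The members together took 4.64%, 3.45% and 3.45% of all counts in the libraries labelled Wnt1_KP6, 4.55%, 3.65% and 3.72% in those labelled Wnt1, and 4.48%, 4.02% and 4.15% in control. Replicate 1 had the highest share in each group, and in replicates 2 and 3 both plasmid groups lay under both control libraries. The means were 3.85% ± 0.687 in Wnt1_KP6, 3.98% ± 0.502 in Wnt1 and 4.22% ± 0.239 in control (SD, n = 3 each), so that the differences of -0.37 and -0.24 percentage points from control were smaller than the SD of the plasmid groups. In replicate 1 the share was 1.04 times control in Wnt1_KP6 and 1.02 times control in Wnt1, whereas in replicates 2 and 3 it was 0.846 and 0.902 times control. Of the deposited FPKM the members took 10.2% in Wnt1_KP6, 10.5% in Wnt1 and 11.2% in control. In bulk libraries, a change in the share of cells and a change in RNA per cell cannot be told apart.

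The proportion of large to small subunit mRNA varied little. The ratio of large to small subunit counts was 1.84 to 1.90 over the 9 libraries, with the highest value in control replicate 1. The stalk proteins, which recruit translation factors, were at the following levels. RPLP0 had 2423, 2087 and 2008 CPM in the libraries labelled Wnt1_KP6, 2328, 2025 and 2126 in those labelled Wnt1 and 2198, 2046 and 2159 in control (CPM are counts scaled to library size with trimmed-mean factors). RPLP1 had 419, 317 and 332 CPM in the libraries labelled Wnt1_KP6, 395, 319.9 and 342 in those labelled Wnt1 and 362, 319 and 334 in control. RPLP2 had 211, 179 and 169 CPM in the libraries labelled Wnt1_KP6, 211, 176 and 176 in those labelled Wnt1 and 175, 195 and 215 in control. For RPLP0 and RPLP1, replicate 1 was the highest library of every group, while for RPLP2 it was the lowest of control. The 3 genes differed from control by 0.02 ± 0.11, 0.06 ± 0.13 and -0.06 ± 0.13 in Wnt1 on the log2 scale, none of which passed the test.

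**Figure D2:**
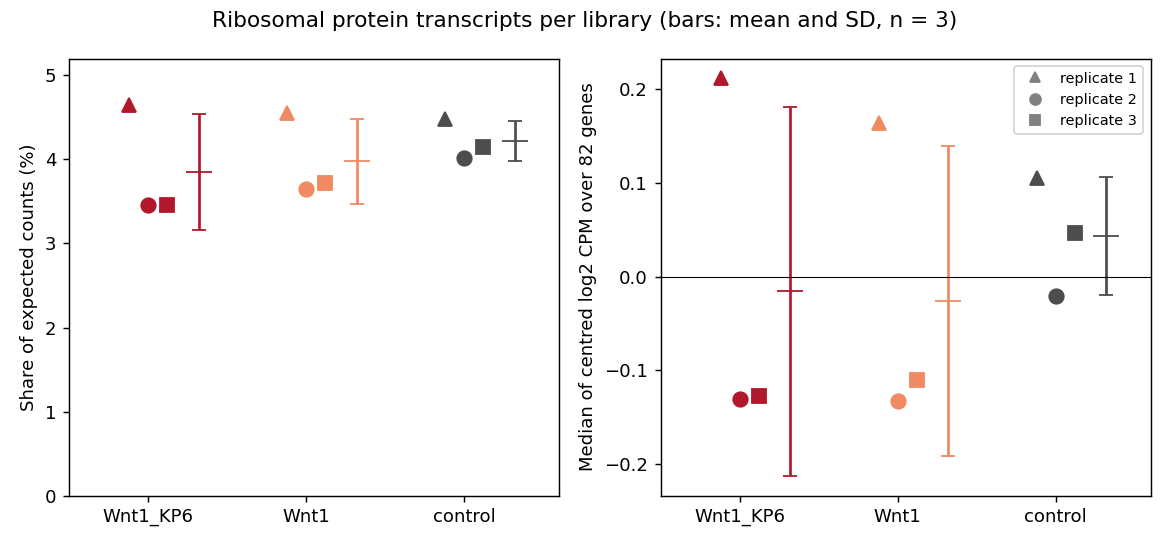
Left, percent of all expected counts on ribosomal protein genes in each library; right, the median over 82 genes of log2 CPM centred on each gene's mean, with group mean and SD (n = 3) beside the points. Replicate 1 is the highest library of each group in both panels, at 4.64% in Wnt1_KP6, 4.55% in Wnt1 and 4.48% in control on the left.

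Over all 9 libraries no member was called in any of the 3 comparisons by edgeR's quasi-likelihood test at an adjusted p under 0.05, adjusted over all 13153 genes. For Wnt1 vs control 0 of 82 members were called, where 0.122% of all genes were (16 genes, with 0.0076% lower). For Wnt1_KP6 vs control 0 were called, where 0.228% of all genes were (30 genes, with 0.038% lower). For Wnt1_KP6 vs Wnt1 0 were called, and 0% of all genes. The counts over all genes turned on single libraries: without control replicate 1 they were 879 and 1198 in the comparisons with control, and without control replicate 2 or 3 or Wnt1 replicate 3 they were 0. Without Wnt1_KP6 replicate 1 they were 692 in Wnt1_KP6 vs control and 214 in Wnt1_KP6 vs Wnt1. Without each remaining library they were 4 to 6 in Wnt1 vs control, apart from 43 without Wnt1_KP6 replicate 1, and 0 to 43 in Wnt1_KP6 vs control. At an unadjusted p under 0.05 there were 3 members in Wnt1 vs control (RPL23, RPL26L1 and RPL6, all lower) against 11.2% of all genes, 2 in Wnt1_KP6 vs control (RPL23 and RPL26L1, lower) against 15.8%, and 0 in Wnt1_KP6 vs Wnt1 against 2.76%. DESeq2 called 1 member, RPL26L1, as lower in Wnt1 vs control, and 0 in either direction in Wnt1_KP6 vs control and Wnt1_KP6 vs Wnt1. Of all genes with an adjusted p it called 0.661%, 1.52% and 0.0126% as lower in these comparisons. In either direction it called 284 of 13307, 656 of 12662 and 17 of 15909. With the replicate number as a block, edgeR again called 0 members in all 3 comparisons (0.722%, 1.13% and 0% of all genes in Wnt1 vs control, Wnt1_KP6 vs control and Wnt1_KP6 vs Wnt1).

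The medians of the members lay near 0 and turned on single libraries. The median log2 fold change of the members was -0.07 in Wnt1 vs control, with 60 of 82 below 0, and -0.07 in Wnt1_KP6 vs control, with 57 below 0. For Wnt1_KP6 vs Wnt1 it was 0.01. Without Wnt1 replicate 1, 2 or 3 the median in Wnt1 vs control was -0.17, -0.025 and -0.030. Without Wnt1_KP6 replicate 1, 2 or 3 that in Wnt1_KP6 vs control was -0.17, -0.021 and -0.0045. In Wnt1_KP6 vs Wnt1 it turned from -0.11 without Wnt1_KP6 replicate 1 to 0.10 without Wnt1 replicate 1. The medians over all tested genes were 0.00, -0.01 and 0.00 in the same comparisons. The large subunit (43 core members outside the stalk) had medians of -0.08, -0.06 and 0.01, and the small subunit (31 members) -0.06, -0.07 and 0.00. The half-width of the 95% interval of a member's log2 fold change had a median of 0.31, so a change of this size or less in a single gene could be missed. This interval is not adjusted for the number of genes tested. Larger estimates also fell short of the adjusted threshold, such as RPL26L1 at -0.51 (adjusted p = 0.174 by edgeR) in Wnt1 vs control. Scaling by library totals alone moved the median of all genes to -0.03, -0.08 and -0.05 and that of the members to -0.09, -0.14 and -0.04.

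The libraries of the groups compared did not overlap for few members. In Wnt1 vs control 6 members lay lower without overlap (RPL17, RPL23, RPL26L1, RPL6, RPS27L and RPS7) and 0 higher, where 7.87% and 8.67% of all genes did. In Wnt1_KP6 vs control 5 lay lower (RPL23, RPL26L1, RPL6, RPS27L and RPS7; 7.8% of all genes) and 1 higher (RPL22L1; 8.74%). In Wnt1_KP6 vs Wnt1 0 lay lower (2.94%) and 1 higher (RPL26L1; 2.87%). The first 2 comparisons share the control libraries.

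The replicates did not show the same shift. In replicate 1 alone the median of the 82 members was 0.02 in Wnt1 vs control and 0.07 in Wnt1_KP6 vs control, with 37 and 31 below 0. In replicates 2 and 3 it was -0.14 and -0.16, with 77 and 78 of 82 below 0. For Wnt1_KP6 vs Wnt1 the medians were 0.04 in replicate 1 and -0.02 in replicates 2 and 3. Fitted on replicates 2 and 3 alone, a setting chosen because replicate 1 was known to stand apart, edgeR called 30 members lower and 1 higher in Wnt1 vs control. In that setting 15.3% of all genes were called lower and 16.3% higher. In Wnt1_KP6 vs control it called 38 members lower and 0 higher (19.5% and 21.1% of all genes), and in Wnt1_KP6 vs Wnt1 0 in either direction (2.56% lower and 6.06% higher, 8.62% together). The members called as lower were 17 of 43 large subunit genes, 10 of 31 small subunit genes, RPLP2 and 2 diverged copies in Wnt1 vs control, and 21, 14, RPLP2 and 2 in Wnt1_KP6 vs control. The core members called in these libraries had log2 fold changes of -0.48 to -0.15 in Wnt1 vs control and of -0.47 to -0.14 in Wnt1_KP6 vs control, with RPL23 at the low end of both.

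**Figure D3:**
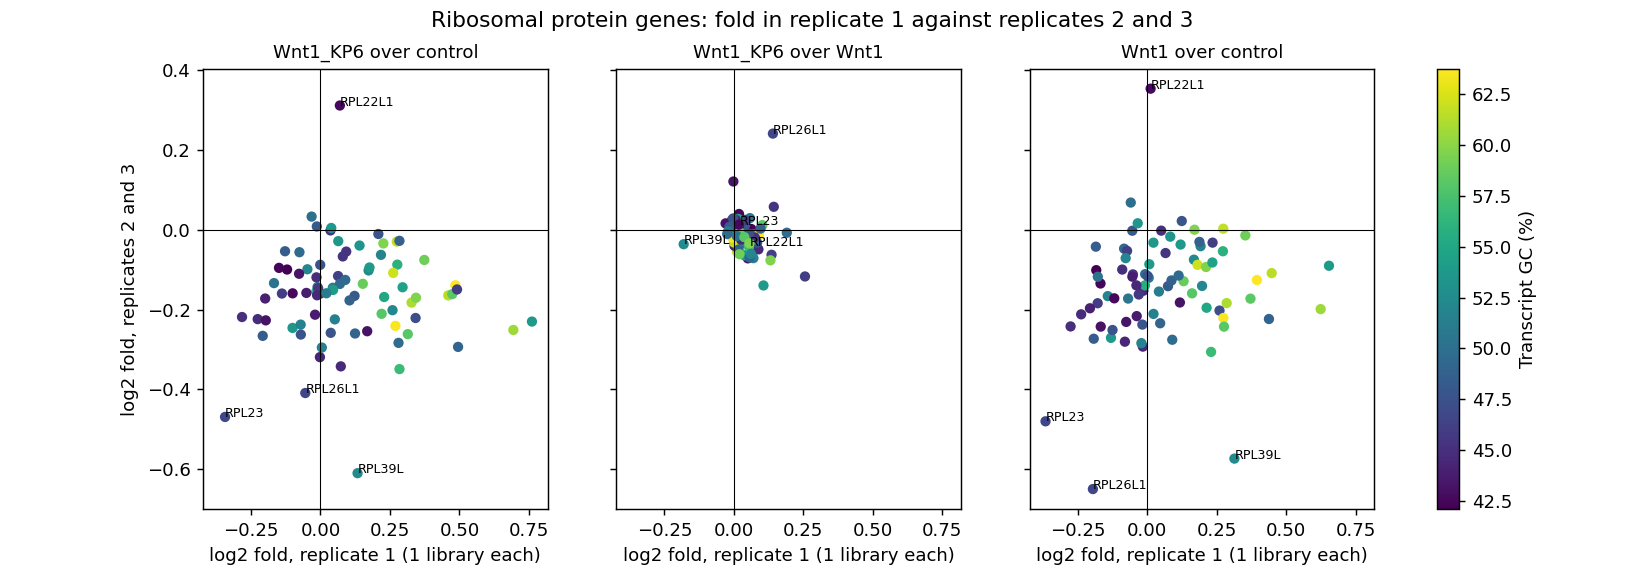
Log2 fold change of each of 82 ribosomal protein genes in replicate 1 (horizontal) and in replicates 2 and 3 (vertical) for the 3 comparisons, coloured by transcript GC content. In the 2 comparisons with control nearly all points lie below 0 on the vertical axis and are spread over both sides of 0 on the horizontal axis, with GC-rich genes to the right.

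Across the 82 members the fold change in replicate 1 went with GC content. Pearson's r between transcript GC percent and the replicate 1 fold change was 0.66 for Wnt1 vs control and 0.62 for Wnt1_KP6 vs control. These points share 2 libraries per comparison, and both comparisons share control replicate 1. The values over 12937 tested genes with a GC value were 0.40 and 0.47. For Wnt1_KP6 vs Wnt1, which leaves out control, r in replicate 1 was 0.00 over the members and 0.11 over all genes with a GC value (Spearman's rho 0.08 and 0.21), and in replicates 2 and 3 r was 0.08 (Wnt1 vs control) and -0.02 (Wnt1_KP6 vs control), and -0.27 for Wnt1_KP6 vs Wnt1. The 41 members of higher GC content (49.6% to 63.8%) had replicate 1 medians of 0.17 and 0.22 against control in Wnt1 and Wnt1_KP6. The 41 of lower GC content (42.1% to 49.5%) had -0.04 and 0.00. In replicates 2 and 3 both sets were below 0, at -0.12 and -0.15 for higher GC and -0.15 and -0.16 for lower GC.

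Several members had their lowest CPM of all libraries in control replicate 1, among them RPL28, RPL35, RPL36, RPS2, RPS15, RPS26 and RPS28. This ranking is by CPM and can differ by FPKM, as for RPS2. RPS28 had 127, 97.6 and 81.8 CPM in the libraries labelled Wnt1_KP6, 118, 96.5 and 101 in those labelled Wnt1 and 74.7, 82.8 and 127 in control. RPS26 had 197, 202 and 182 CPM in the libraries labelled Wnt1_KP6, 189, 205 and 198 in those labelled Wnt1 and 139.5, 216 and 255 in control. RPL28, with a transcript GC content of 60.6%, had 330.2, 287 and 264 CPM in the libraries labelled Wnt1_KP6, 315, 287 and 284 in those labelled Wnt1 and 204, 265 and 390.3 in control. Each of these 3 genes was lowest in control replicate 1 and highest in control replicate 3. Their log2 fold changes for Wnt1 vs control in replicate 1 were 0.65, 0.44 and 0.62, against -0.09, -0.22 and -0.20 in replicates 2 and 3. The part that GC content and this library have in the members' results was not tested. Without control replicate 1, the members' median log2 fold change was -0.047 in Wnt1 vs control and -0.043 in Wnt1_KP6 vs control, and RPL26L1 was called in both.

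**Figure D4:**
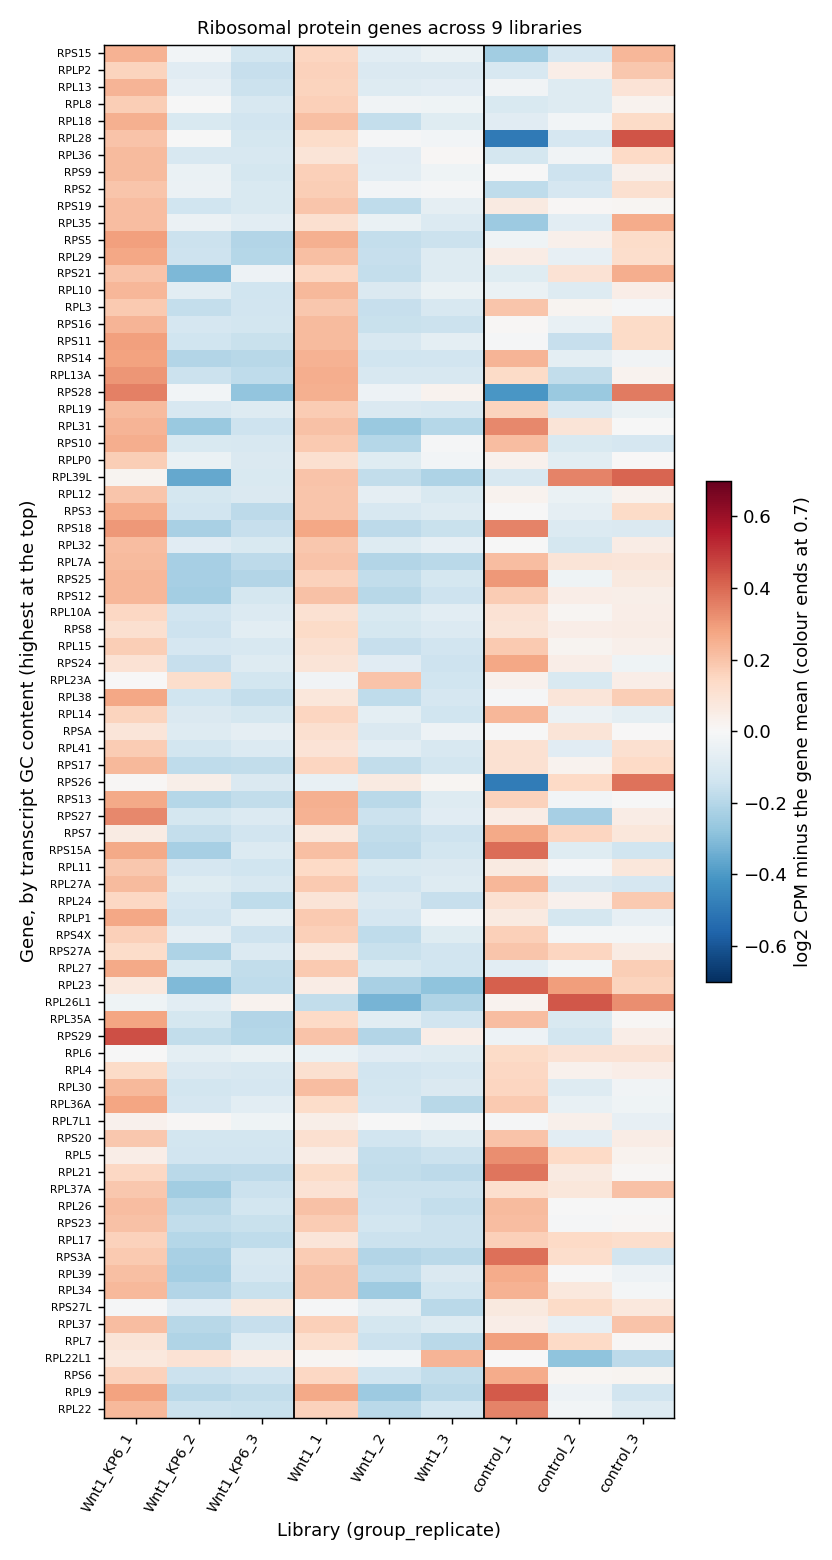
Log2 CPM of ribosomal protein genes minus each gene's mean in each library, genes ordered by transcript GC content from 63.8% at the top to 42.1% at the bottom. Replicate 1 of Wnt1_KP6 and Wnt1 is high for nearly all genes, and control replicate 1 is low for several GC-rich genes at the top and high for GC-poor genes at the bottom.

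Replicate 1 differed from replicates 2 and 3 in level as well. The members were above the mean of replicates 2 and 3 in replicate 1 for 79 of 82 genes in Wnt1_KP6 (median 0.33 on the log2 scale), 79 of 82 in Wnt1 (0.27) and 57 of 82 in control (0.07), and 55 were above it in all 3 groups. Of all tested genes 50.8%, 50.1% and 50.2% were above it in Wnt1_KP6, Wnt1 and control. Of 7769 other genes at or above a floor set near the lowest levels among the members, 44.2%, 45.8% and 48.6% were. This set has no upper bound and was not matched to the members' abundance. The difference between replicates 2 and 3 of a group was small by comparison, with a median of 0.06 over the members and 0.10 over all genes. Within a group the median SD of a member was 0.17, against 0.20 over all tested genes and 0.16 over the 7769 other genes.

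RPL23 (uL14; ENSG00000125691, chr17:38847865-38853843, hg38), a large subunit protein that also binds the p53 regulator MDM2, was the core member with the largest shift. Its level was 255, 196 and 214 CPM in the libraries labelled Wnt1_KP6, 251, 207 and 199 in those labelled Wnt1 and 323, 297 and 270.4 in control. Every library of both plasmid groups was under every control library, in replicate 1 as in the others. The log2 fold change was -0.44 ± 0.13 (adjusted p = 0.28) in Wnt1 vs control and -0.42 ± 0.13 (adjusted p = 0.18) in Wnt1_KP6 vs control, by edgeR. It was -0.37 and -0.34 in replicate 1 and -0.48 and -0.47 in replicates 2 and 3, where edgeR called it (adjusted p = 0.000124 and 0.000104). Between the plasmid groups it was 0.02 ± 0.13 (adjusted p = 1), and the sign of this value turned without Wnt1_KP6 replicate 1 (-0.095), without Wnt1 replicate 2 (-0.022) or replicate 3 (-0.046), and with library totals alone (-0.032).

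RPL5 and RPL11 form, with the ribosomal RNA of the large subunit's central protuberance, the particle that binds MDM2 when ribosome assembly is disturbed. RPL5 (ENSG00000122406, chr1:92831983-92841924) had 711, 629 and 629 CPM in the libraries labelled Wnt1_KP6, 714, 614 and 622 in those labelled Wnt1 and 865, 759.8 and 702 in control. RPL11 (ENSG00000142676, chr1:23691742-23696835) had 705, 571 and 562 CPM in the libraries labelled Wnt1_KP6, 682, 574 and 577 in those labelled Wnt1 and 648, 617 and 654 in control. RPL5 was lower in both plasmid groups within every replicate number, although Wnt1_KP6 replicate 1 and Wnt1 replicate 1 lay above control replicate 3. For RPL11, replicate 1 of both plasmid groups lay above all control libraries and their replicates 2 and 3 lay under all of them. For RPL5 the log2 fold change was -0.26 ± 0.11 (adjusted p = 0.448) in Wnt1 vs control and -0.24 ± 0.11 (adjusted p = 0.351) in Wnt1_KP6 vs control. For RPL11 it was -0.07 ± 0.12 (adjusted p = 0.898) and -0.06 ± 0.12 (adjusted p = 0.865). In replicates 2 and 3 alone, edgeR called RPL5 lower in both comparisons (-0.24, adjusted p = 0.00552, and -0.22, adjusted p = 0.00744). In the same libraries it called RPL11 lower in Wnt1_KP6 vs control (-0.17, adjusted p = 0.0294) and not in Wnt1 vs control (-0.14, adjusted p = 0.0688). The partners' difference from each other was not tested.

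RPS7 (eS7; ENSG00000171863, chr2:3575205-3580920), a small subunit protein that also binds MDM2, had 499, 428 and 437 CPM in the libraries labelled Wnt1_KP6, 504, 425 and 434 in those labelled Wnt1 and 576, 533 and 506 in control. The plasmid groups did not overlap control, with values of -0.24 ± 0.11 (adjusted p = 0.445) in Wnt1 vs control and -0.24 ± 0.11 (adjusted p = 0.318) in Wnt1_KP6 vs control. RPL6 had 873, 835 and 848 CPM in the libraries labelled Wnt1_KP6, 849.8, 828 and 824 in those labelled Wnt1 and 961, 938 and 940.1 in control, again without overlap. Its values were -0.18 ± 0.08 (adjusted p = 0.437) and -0.15 ± 0.08 (adjusted p = 0.402). RPL17 had 383, 298 and 303 CPM in the libraries labelled Wnt1_KP6, 363, 308 and 308 in those labelled Wnt1 and 383, 376 and 373 in control, and 24.8% of its exon bases overlap the read-through gene RPL17-C18orf32. Its value in Wnt1 vs control was -0.21 ± 0.12 (adjusted p = 0.559).

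RPS6, the substrate of the S6 kinases and a common readout of mTORC1 by its phosphorylation, had 917, 739 and 748 CPM in the libraries labelled Wnt1_KP6, 906, 744 and 728 in those labelled Wnt1 and 983, 829 and 830.3 in control. RPS3, which also takes part in DNA repair, had 780.1, 595 and 574 CPM in the libraries labelled Wnt1_KP6, 747, 604 and 612 in those labelled Wnt1 and 652, 625 and 717 in control. RPS19, the gene most often mutated in Diamond-Blackfan anaemia, had 319, 249.5 and 255 CPM in the libraries labelled Wnt1_KP6, 314, 243 and 263 in those labelled Wnt1 and 287, 276 and 277 in control. In each of these, replicate 1 of both plasmid groups was above their replicates 2 and 3, and the groups overlapped. The log2 fold changes in Wnt1 vs control were -0.15 ± 0.13 for RPS6, -0.02 ± 0.14 for RPS3 and -0.04 ± 0.13 for RPS19, none of which passed the test. RPSA had 1083, 958 and 978 CPM in the libraries labelled Wnt1_KP6, 1101, 952 and 994 in those labelled Wnt1 and 1018, 1086 and 1023 in control. RPL3 had 1851, 1455 and 1491 CPM in the libraries labelled Wnt1_KP6, 1861, 1462 and 1511 in those labelled Wnt1 and 1871, 1655 and 1622 in control. RPL10 had 794, 643 and 614 CPM in the libraries labelled Wnt1_KP6, 792, 629.7 and 654 in those labelled Wnt1 and 655, 635 and 699 in control. The groups overlapped for each of these 3 genes, and the log2 fold changes in Wnt1 vs control were -0.04 ± 0.10 for RPSA, -0.09 ± 0.14 for RPL3 and 0.06 ± 0.13 for RPL10. RPL41 had 669.9, 542 and 555 CPM in the libraries labelled Wnt1_KP6, 635, 564 and 549 in those labelled Wnt1 and 638, 562 and 641 in control. RPL7A had 1683, 1227 and 1269.6 CPM in the libraries labelled Wnt1_KP6, 1653, 1249 and 1263 in those labelled Wnt1 and 1677, 1532 and 1528 in control. Replicate 1 was the highest library of both plasmid groups in both genes, and the values in the same comparison were -0.07 ± 0.12 and -0.19 ± 0.16, also short of the test.

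Near the high end of Wnt1 vs control stood RPS28 (0.14 ± 0.22), RPS2 (0.11 ± 0.13) and RPL8 (0.09 ± 0.11), after the diverged copy RPL22L1. All 3 had a larger value in replicate 1 (0.65, 0.35 and 0.27) than in replicates 2 and 3 (-0.09, -0.01 and 0.00). RPL8 had 1544, 1367 and 1269.6 CPM in the libraries labelled Wnt1_KP6, 1543, 1348 and 1343 in those labelled Wnt1 and 1276, 1291 and 1398 in control, with control replicate 1 the lowest control library. RPS29 had 45.8, 29.6 and 29.1 CPM in the libraries labelled Wnt1_KP6, 38.3, 28.96 and 34.5 in those labelled Wnt1 and 32.6, 30.6 and 34.5 in control. RPS27 had 259, 188 and 191 CPM in the libraries labelled Wnt1_KP6, 242, 184 and 194 in those labelled Wnt1 and 212, 174 and 212 in control. For RPS29 and RPS27, Wnt1_KP6 replicate 1 was the highest of all libraries and the other Wnt1_KP6 libraries lay within the range of the other groups. Their values in Wnt1_KP6 vs control were 0.10 ± 0.18 and 0.09 ± 0.16.

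Between the plasmid groups the differences of the members were small over all 9 libraries. Replicate 1 of these groups was alike, with a chi-squared per degree of freedom of 3.45 between the libraries. Replicates 2 and 3 differed by 3.09 within Wnt1 and 3.32 within Wnt1_KP6, and by 38.9 to 43.5 between the groups. What the likeness in replicate 1 contributes to the small differences was not tested. The median absolute log2 fold change of the 82 members was 0.02 in Wnt1_KP6 vs Wnt1, against 0.08 over all tested genes. In Wnt1_KP6 vs control it was 0.08 (0.17 over all genes) and in Wnt1 vs control 0.08 (0.15 over all genes). The core members at the high end of Wnt1_KP6 vs Wnt1 were RPL36A (0.09 ± 0.14), RPL38 (0.07 ± 0.13) and RPL35 (0.05 ± 0.15). RPL36A had 237, 181 and 186 CPM in the libraries labelled Wnt1_KP6, 215, 181 and 171 in those labelled Wnt1 and 222, 189 and 192 in control. RPL38 had 168, 126 and 124 CPM in the libraries labelled Wnt1_KP6, 147, 123 and 128 in those labelled Wnt1 and 138, 148 and 157 in control. RPL35 had 339, 283 and 276 CPM in the libraries labelled Wnt1_KP6, 316, 282 and 273 in those labelled Wnt1 and 244, 277 and 349 in control. In all 3, replicate 1 of Wnt1_KP6 was above replicate 1 of Wnt1, and the groups overlapped. Among the core members at the low end were RPS28 (-0.04 ± 0.22), RPS2 (-0.03 ± 0.13) and RPS26 (-0.03 ± 0.19). None of these passed the test (adjusted p = 1 for each by edgeR), and the lowest and highest bounds of the members' 95% intervals were -0.54 and 0.50, so larger differences in single members are outside those intervals.

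The diverged copies were low next to their parent genes. RPL7L1, a nuclear factor of large subunit assembly, had 52.0 FPKM, 5.07% of RPL7, and its coding sequence is 71.1% identical to it. RPL22L1 had 18.5 FPKM (5.99% of RPL22, 74.5% identical), RPL26L1 26.3 FPKM (3.02% of RPL26, 84.1% identical), RPS27L, a p53 target, 21.3 FPKM (3.63% of RPS27, 77.8% identical), and RPL39L, known from the testis, 18.9 FPKM (8.26% of RPL39, 94.8% identical). The longest identical stretch is 44 bases for RPL39L and RPL39 and 50 bases for RPL10L and RPL10, so reads of these pairs may be divided in error. RPL3L, a heart and skeletal muscle gene, had 2 counts in Wnt1 replicate 3, 1 in control replicate 2 and 0 in the other libraries, and RPL10L, a testis gene, had 0 counts in all 9 libraries. A count of 0 allows 0.109 to 0.142 CPM per library, at 3 counts and for counting error only.

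RPL26L1 (ENSG00000037241, chr5:172958729-172969771) had 17.6, 17.1 and 18.3 CPM in the libraries labelled Wnt1_KP6, 15.96, 14.3 and 15.5 in those labelled Wnt1 and 18.3, 24.3 and 22.6 in control. All plasmid libraries were under all control libraries, with Wnt1_KP6 replicate 3 just so, at 18.27 against 18.28 CPM in control replicate 1. All libraries labelled Wnt1_KP6 were above those labelled Wnt1. The log2 fold change was -0.51 ± 0.12 (adjusted p = 0.174) in Wnt1 vs control, -0.30 ± 0.12 (adjusted p = 0.275) in Wnt1_KP6 vs control and 0.21 ± 0.12 (adjusted p = 1) in Wnt1_KP6 vs Wnt1 by edgeR. DESeq2 gave an adjusted p of 0.0333 for the first. Without control replicate 1, the control library closest to the plasmid groups, edgeR called it in both comparisons with control (-0.62, adjusted p = 0.0106, and -0.41, adjusted p = 0.0375). RPL26 itself had 533, 400.0 and 419 CPM in the libraries labelled Wnt1_KP6, 528, 414 and 408 in those labelled Wnt1 and 534, 457 and 457 in control. The parent gene's values were -0.10 ± 0.15 and -0.10 ± 0.15 in Wnt1 and Wnt1_KP6 against control.

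RPL39L (ENSG00000163923, chr3:187120948-187180908) had 13.7, 10.5 and 12.6 CPM in the libraries labelled Wnt1_KP6, 15.5, 11.97 and 11.6 in those labelled Wnt1 and 12.48, 17.2 and 17.9 in control. Control replicate 1 lay among the plasmid libraries, and control replicates 2 and 3 lay above all of them. The log2 fold change was -0.28 ± 0.18 (adjusted p = 0.614) in Wnt1 vs control and -0.37 ± 0.18 (adjusted p = 0.364) in Wnt1_KP6 vs control. It was 0.31 and 0.13 in replicate 1, of the other sign than in replicates 2 and 3, where it was -0.57 and -0.61 (adjusted p = 0.00206 and 0.000933 by edgeR in these alone). RPL39 had 102, 74.8 and 81.5 CPM in the libraries labelled Wnt1_KP6, 102, 78.1 and 82.4 in those labelled Wnt1 and 106, 88.1 and 86.2 in control, with -0.09 ± 0.15 and -0.12 ± 0.15 against control.

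RPL22L1 (ENSG00000163584, chr3:170864875-170870483) had the highest fold change of the members against control. In mouse, Rpl22 protein represses the Rpl22l1 mRNA. RPL22L1 had 11.6, 11.9 and 11.5 CPM in the libraries labelled Wnt1_KP6, 11.2, 10.9 and 13.1 in those labelled Wnt1 and 11.1, 9.09 and 9.74 in control. The Wnt1_KP6 libraries did not overlap control, and Wnt1 replicate 2 lay under control replicate 1. The log2 fold change was 0.23 ± 0.12 (adjusted p = 0.53) in Wnt1 vs control and 0.23 ± 0.12 (adjusted p = 0.425) in Wnt1_KP6 vs control. It was 0.01 and 0.07 in replicate 1 and 0.35 and 0.31 in replicates 2 and 3, where it was called in Wnt1 vs control (adjusted p = 0.0485 by edgeR). RPL22 had 377, 291 and 289 CPM in the libraries labelled Wnt1_KP6, 361, 283 and 295 in those labelled Wnt1 and 410.0, 318 and 303 in control. Its values were -0.13 ± 0.16 and -0.11 ± 0.16, opposite in sign to those of RPL22L1 and smaller than their SE.

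RPS27L (ENSG00000185088, chr15:63125872-63158021) had 15.7, 14.97 and 16.6 CPM in the libraries labelled Wnt1_KP6, 15.7, 15.1 and 13.8 in those labelled Wnt1 and 16.6, 17.3 and 16.7 in control. Both plasmid groups were under all control libraries, with Wnt1_KP6 replicate 3 at 16.575 and control replicate 1 at 16.594 CPM. The log2 fold changes were -0.18 ± 0.10 in Wnt1 vs control and -0.10 ± 0.10 in Wnt1_KP6 vs control, short of the test (adjusted p = 0.546 and 0.701 by edgeR). RPL7L1 had 143, 141 and 138 CPM in the libraries labelled Wnt1_KP6, 145, 139.9 and 138 in those labelled Wnt1 and 139.5, 144 and 135 in control. The groups overlapped over a small range, with 0.01 ± 0.08 in Wnt1 vs control. RPL7, its parent, had 939, 763 and 828 CPM in the libraries labelled Wnt1_KP6, 958, 796 and 775 in those labelled Wnt1 and 1076, 971 and 889 in control, with -0.22 ± 0.13 and -0.21 ± 0.13 against control.

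**Figure D5:**
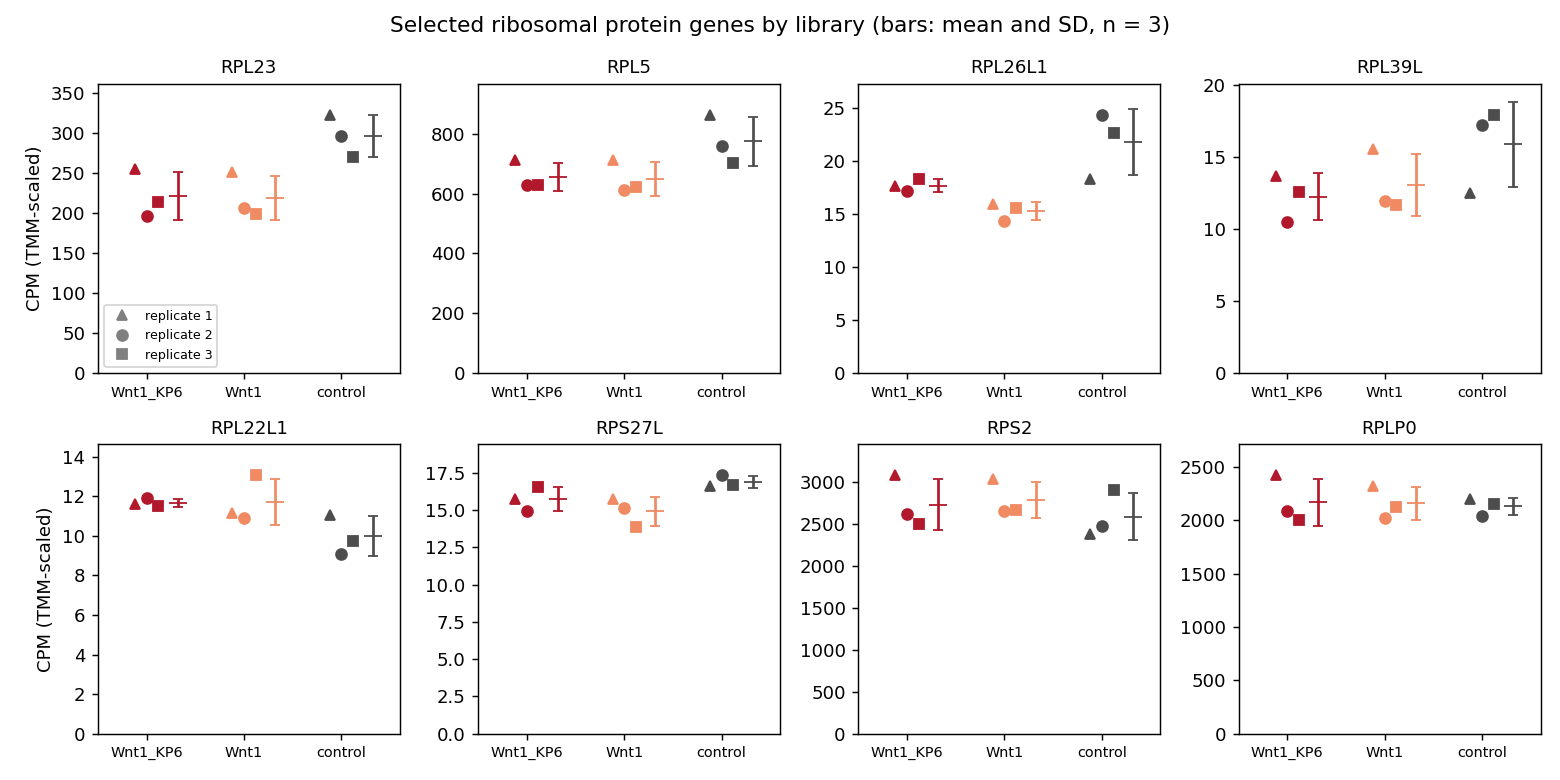
CPM of 8 ribosomal protein genes in each library, with group mean and SD (n = 3) beside the points and the axis from 0. For RPL23 and RPL26L1 all plasmid libraries lie under all control libraries, for RPL39L control replicate 1 lies among the plasmid libraries, and for RPS2 and RPLP0 the groups overlap.

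Proteins of the ribosome whose genes carry other names were not among the members. RACK1, a small subunit scaffold, had 990.1, 899.9 and 876 CPM in the libraries labelled Wnt1_KP6, 1002, 881 and 911 in those labelled Wnt1 and 846, 834 and 914 in control. FAU, a fusion gene that yields RPS30, and RPL36AL were measured as well. RACK1 was at 0.11 ± 0.10 (adjusted p = 0.752) in Wnt1 vs control by edgeR, and FAU and RPL36AL at -0.10 to 0.04 (lowest adjusted p = 0.775).

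Other mRNAs with the TOP motif, those of translation elongation and initiation factors and of poly(A) binding protein, held such a run within 5 bases of the start in 13 of 15 matched promoters (86.7%). Of 22 tested, 0 were called by edgeR in any comparison. At an unadjusted p under 0.05 there were 1 (4.55%) in Wnt1 vs control, 1 (4.55%) in Wnt1_KP6 vs control and 0 in Wnt1_KP6 vs Wnt1, against 11.2%, 15.8% and 2.76% of all genes. DESeq2 called 1, EIF4B, as lower in Wnt1_KP6 vs control, where it called 1.52% of the genes with an adjusted p as lower. The medians were -0.07 in Wnt1 vs control, -0.06 in Wnt1_KP6 vs control and 0.02 in Wnt1_KP6 vs Wnt1. In replicates 2 and 3 alone 5 were called lower (22.7%, against 15.3% of all genes) and 1 higher (4.55%, against 16.3%) in Wnt1 vs control. In Wnt1_KP6 vs control 3 were called lower (13.6%, against 19.5% of all genes) and 2 higher (9.09%, against 21.1%). EIF4B had 557, 567 and 579.7 CPM in the libraries labelled Wnt1_KP6, 559, 578 and 571 in those labelled Wnt1 and 775, 669.8 and 644 in control, lower without overlap at -0.29 ± 0.09 (adjusted p = 0.301) in Wnt1 vs control by edgeR. PABPC1 had 1366, 1609.7 and 1595 CPM in the libraries labelled Wnt1_KP6, 1361, 1581 and 1508 in those labelled Wnt1 and 1556, 1883 and 1917 in control, with replicate 1 the lowest library of each group, and its value was -0.27 ± 0.12 (adjusted p = 0.454). BTF3, EIF2S3, EIF3G, EIF3M and NAP1L1 lay at -0.26 to 0.13 (lowest adjusted p = 0.504) in Wnt1 vs control.

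The factors that process ribosomal RNA and assemble the subunits were covered by 58 genes. They had medians of 0.14 in Wnt1 vs control, 0.16 in Wnt1_KP6 vs control and 0.03 in Wnt1_KP6 vs Wnt1, with 0 called by edgeR over all 9 libraries. At an unadjusted p under 0.05 there were 6 (10.3%), 11 (19%) and 0, against 11.2%, 15.8% and 2.76% of all genes. In the same comparisons DESeq2 called 1 of the 58 (UTP4), 3 (NOP14, UTP4 and RRP12) and 0. Of all genes with an adjusted p it called 284 of 13307, 656 of 12662 and 17 of 15909. In replicates 2 and 3 alone 18 were called higher (31%, against 16.3% of all genes) and 4 lower (6.9%, against 15.3%) in Wnt1 vs control. In Wnt1_KP6 vs control 25 were called higher (43.1%, against 21.1%) and 3 lower (5.17%, against 19.5%), and in Wnt1_KP6 vs Wnt1 4 higher (6.9%, against 6.06%) and 0 lower (2.56% of all genes). The difference of these genes from the ribosomal protein genes was not tested. UTP4, a small subunit processome factor, had 85.9, 90.1 and 88.5 CPM in the libraries labelled Wnt1_KP6, 85.3, 88.8 and 92.1 in those labelled Wnt1 and 74.9, 74.3 and 70.00 in control. NOP14, of the same particle, had 64.8, 74.5 and 68.98 CPM in the libraries labelled Wnt1_KP6, 63.8, 70.98 and 68.7 in those labelled Wnt1 and 56.9, 55.5 and 55.7 in control. Both were higher than control in every plasmid library, at 0.28 ± 0.08 (adjusted p = 0.222) for UTP4 and 0.28 ± 0.08 (adjusted p = 0.28) for NOP14 in Wnt1 vs control by edgeR. DDX21, a helicase of ribosomal RNA transcription and processing, had 253, 394 and 388 CPM in the libraries labelled Wnt1_KP6, 271, 319.7 and 297 in those labelled Wnt1 and 254, 249 and 228 in control. It was high in replicates 2 and 3 of both plasmid groups and at the control level in replicate 1 of Wnt1_KP6, at 0.50 ± 0.16 (adjusted p = 0.185) in Wnt1_KP6 vs control by edgeR. GTPBP4, NOP2 and RRP12 lay at 0.16 to 1.10 (lowest adjusted p = 0.188) in that comparison.

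Among 22 genes of mTORC1 and of the control of TOP mRNAs, which includes MYC and its partners, 0 were called by edgeR over all libraries, with 4 (18.2%), 3 (13.6%) and 0 at an unadjusted p under 0.05 in Wnt1 vs control, Wnt1_KP6 vs control and Wnt1_KP6 vs Wnt1, against 11.2%, 15.8% and 2.76% of all genes. DESeq2 called 1 of the 22, MXD1, in both comparisons with control, where it called 284 of 13307 and 656 of 12662 genes with an adjusted p. The medians were 0.16 in Wnt1 vs control, 0.13 in Wnt1_KP6 vs control and 0.00 in Wnt1_KP6 vs Wnt1. In replicates 2 and 3 alone 9 were called higher (40.9%, against 16.3% of all genes) and 1 lower (4.55%, against 15.3%) in Wnt1 vs control. For Wnt1_KP6 vs control, 10 were called higher (45.5%, against 21.1%) and 3 lower (13.6%, against 19.5%), and in Wnt1_KP6 vs Wnt1 3 higher (13.6%, against 6.06%) and 1 lower (4.55%, against 2.56%). MYC had 199, 621 and 579 CPM in the libraries labelled Wnt1_KP6, 202, 314 and 324 in those labelled Wnt1 and 127, 234 and 264 in control. Replicates 2 and 3 of Wnt1_KP6 stood above all other libraries, and control replicate 1 was the lowest. The log2 fold change was 0.43 ± 0.43 (adjusted p = 0.785) in Wnt1 vs control, 1.16 ± 0.44 (adjusted p = 0.245) in Wnt1_KP6 vs control and 0.74 ± 0.43 (adjusted p = 1) in Wnt1_KP6 vs Wnt1 by edgeR, with 0.36, 1.27 and 0.91 in replicates 2 and 3. With the replicate number as a block, MYC was called in Wnt1_KP6 vs control (adjusted p = 0.0488). MXD1, a partner of MAX that opposes MYC, had 17.3, 35.2 and 31.99 CPM in the libraries labelled Wnt1_KP6, 17.2, 21.1 and 20.8 in those labelled Wnt1 and 12.7, 8.58 and 8.20 in control, higher than control in every plasmid library at 1.00 ± 0.27 (adjusted p = 0.228) and 1.52 ± 0.27 (adjusted p = 0.0607). SESN2, a stress-induced brake on mTORC1, had 148, 199 and 182 CPM in the libraries labelled Wnt1_KP6, 141, 191 and 197 in those labelled Wnt1 and 167, 73.1 and 78.6 in control. In control it was high in replicate 1 alone, so that its value was -0.24 in replicate 1 and 1.36 in replicates 2 and 3 of Wnt1 vs control. MAX and RHEB lay at 0.00 to 0.27 (lowest adjusted p = 0.283) in Wnt1 vs control.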

How the data were processed

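The authors deposited 1 table, which holds for every gene of every library an expected count and a value in FPKM, per the file headers. Expected counts are estimates, of which 87.6% were whole, and they were rounded before testing. The submitters' processing notes name hg38 and the tools RSEM, HISAT2, StringTie 1.3.1, fastp 0.18.0 and Bowtie2 2.2.8. The sources used here give neither the role of each tool nor the annotation release. Per the labels' protocols, RNA was selected for poly(A) tails, and the library kit is not stated to keep strand.

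Groups follow the treatment labels and replicate numbers the titles. edgeR 4.0.16 (R 4.3.3) fitted all 9 libraries with TMM factors, a filter of at least 10 counts (15 in total), a robust quasi-likelihood test and Benjamini-Hochberg adjustment over all tested genes, two-sided. DESeq2 1.42.0, other scalings, no filter, 2 groups alone, a replicate block, each library left out and replicates 2 and 3 alone were the alternatives. Fold changes in replicate 1 compare single libraries and have no test. Tests were checked on simulated data. Over all genes, the deviations from group means correlated at 0.11 to 0.67 in the 9 pairs of libraries with the same number, so the numbers in the titles were taken to pair libraries. Libraries numbered 2 and 3 also correlated across these numbers (0.15 to 0.40, against 0.11 to 0.41 with the same number), so the correlations set replicate 1 apart and do not pair 2 with 2 and 3 with 3. The block follows the titles, and the blocked counts of members stand beside the unblocked ones. Limits set by a count of 0 cover counting error only.

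The members, lists, alternatives and the setting with replicates 2 and 3 were chosen with earlier results of these data known. Any member could be named. Per-library values were set for the 5 largest changes in each direction and comparison, the 5 highest and lowest levels, the stalk, RPL5, RPL11, RPS6 and other listed genes, and the diverged copies with their parents. A few genes are not reported here. Of other lists, the 3 genes of smallest p per comparison and MYC were named. RPL6 and RPL17, and the genes lowest in control replicate 1, were added after their values were seen. Of 10 snoRNA host transcripts 0 were in the table. Markers over 1 CPM on average over the 9 libraries were 1 of 6 for fibroblasts (15.5 to 35.6 CPM summed per library) and 1 of 5 for immune cells (26.3 to 51.0, all but CD68 near 0). They were 0 of 4 for endothelium (0 to 0.239) and 0 of 5 for the distal nephron (0.183 to 0.955). The fibroblast markers COL1A2, LUM and DCN reached 6.93, 2.34 and 1.34 CPM in their highest library and were at 0 in 4, 3 and 7 libraries. GENCODE v29 gave coordinates (hg38), transcripts, GC content, overlaps and pseudogenes, and RefSeq (GRCh38.p14) gave the start windows. Coding sequences were aligned with Biopython 1.88.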

Additional observations from a re-analysis of the deposited data

How the results depend on the processing

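The counts of called genes depended on the setting. DESeq2 called 284 genes in Wnt1 vs control, 656 in Wnt1_KP6 vs control and 17 between the plasmid groups, and 1 ribosomal protein gene, in Wnt1 vs control. With the replicate block, which pairs libraries by the number in their titles, 95 genes were called in Wnt1 vs control, 149 in Wnt1_KP6 vs control and 0 between the plasmid groups, and 0 ribosomal protein genes in any of the 3 comparisons; of the other genes named, the block changed the call of MYC alone. Fitting only the 2 groups compared gave 9 genes in Wnt1 vs control and 0 in Wnt1_KP6 vs control, and library totals alone gave 13 in Wnt1_KP6 vs control. Replicates 2 and 3 alone gave 4115 genes and 31 ribosomal protein genes in Wnt1 vs control, 5293 and 38 in Wnt1_KP6 vs control, and 1124 and 0 between the plasmid groups.

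With each library left out, the genes called ranged from 0 to 879 in Wnt1 vs control and from 0 to 1198 in Wnt1_KP6 vs control, both highest without control replicate 1, and from 0 to 214 between the plasmid groups, highest without Wnt1_KP6 replicate 1. Ribosomal protein genes called ranged from 0 to 1 in both comparisons with control (RPL26L1, without control replicate 1). The members' median fold change ranged from -0.17 (without Wnt1 replicate 1) to -0.025 (without Wnt1 replicate 2) in Wnt1 vs control, and from -0.17 (without Wnt1_KP6 replicate 1) to -0.0045 (without Wnt1_KP6 replicate 3) in Wnt1_KP6 vs control. Between the plasmid groups it ranged from -0.11 (without Wnt1_KP6 replicate 1) to 0.10 (without Wnt1 replicate 1). The share of counts ranged from 3.45% to 4.05% in Wnt1_KP6, 3.69% to 4.14% in Wnt1 and 4.09% to 4.32% in control. As a share of FPKM it was 10.2%, 10.5% and 11.2%. In Wnt1_KP6 vs Wnt1 the signs of values near 0 turned: RPL23 was at -0.032 with library totals alone and ranged from -0.095 to 0.13 with a library left out, RPL22L1 from -0.053 to 0.080 and RPL39L from -0.18 to 0.055. The cause was not tested.

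With 3 libraries a group, the median 95% interval of a member is ±0.31 on the log2 scale, so smaller changes of a single member are not resolved. The interval is not adjusted for the number of genes tested, so larger changes can fall short of the adjusted threshold as well. Reads of RPL39L and RPL39, and of members with many pseudogenes, may have been divided in error.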

Other observations

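Mitochondrial ribosomal proteins, which build the ribosome of the mitochondrion and are made in the cytosol, were measured as 78 genes. None was called by edgeR over all 9 libraries (6 and 5 at an unadjusted p under 0.05 in Wnt1 vs control and Wnt1_KP6 vs control, or 7.69% and 6.41% against 11.2% and 15.8% of all genes, and 0 in Wnt1_KP6 vs Wnt1 against 2.76%). DESeq2 called 2 of the 78 in Wnt1 vs control (MRPL49 and MRPS30), 2 in Wnt1_KP6 vs control (MRPL35 and MRPL49) and 0 in Wnt1_KP6 vs Wnt1. Of all genes with an adjusted p it called 284 of 13307, 656 of 12662 and 17 of 15909. The medians were -0.02 in Wnt1 vs control, -0.02 in Wnt1_KP6 vs control and -0.01 in Wnt1_KP6 vs Wnt1. In replicate 1 the medians were 0.09, 0.13 and 0.03, and in replicates 2 and 3 -0.06, -0.08 and -0.04, in the same order. Replicates 2 and 3 alone had 8 called lower (10.3%, against 15.3% of all genes) and 4 higher (5.13%, against 16.3%) in Wnt1 vs control. In Wnt1_KP6 vs control they had 15 called lower (19.2%, against 19.5%) and 2 higher (2.56%, against 21.1%). MRPL49 had 82.2, 83.2 and 78.9 CPM in the libraries labelled Wnt1_KP6, 80.8, 89.98 and 90.04 in those labelled Wnt1 and 68.5, 64.2 and 65.3 in control, higher than control in every plasmid library at 0.40 ± 0.08 (adjusted p = 0.125) in Wnt1 vs control by edgeR. MRPL35 had 36.6, 34.7 and 37.04 CPM in the libraries labelled Wnt1_KP6, 36.5, 40.5 and 42.2 in those labelled Wnt1 and 42.4, 52.1 and 50.1 in control, lower than control in every Wnt1_KP6 library at -0.42 ± 0.10 (adjusted p = 0.122) in Wnt1_KP6 vs control. MRPL27, MRPL46, MRPL51 and MRPS30 lay at -0.29 to 0.36 (lowest adjusted p = 0.161) in Wnt1 vs control by edgeR. Of their promoters 15 of 69 (21.7%) held the pyrimidine run within 5 bases of the start, against 76.1% of the cytosolic members and 21.1% of all promoters.

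RNA polymerase I, which transcribes ribosomal RNA, was covered by 15 genes with medians of 0.06 in Wnt1 vs control, 0.01 in Wnt1_KP6 vs control and -0.02 in Wnt1_KP6 vs Wnt1. Of these, 0 were called by edgeR or DESeq2. At an unadjusted p under 0.05 by edgeR there were 2 (13.3%), 1 (6.67%) and 0, against 11.2%, 15.8% and 2.76% of all genes. TAF1D, a subunit of its selectivity factor, had 50.5, 75.6 and 78.5 CPM in the libraries labelled Wnt1_KP6, 52.5, 76.2 and 69.1 in those labelled Wnt1 and 48.2, 49.5 and 44.9 in control, with all plasmid libraries above control and the difference mostly in replicates 2 and 3 (0.12 in replicate 1 and 0.62 in replicates 2 and 3 of Wnt1 vs control). POLR1B, POLR1E, POLR1F, RRN3 and TAF1B lay at -0.22 to 0.14 (lowest adjusted p = 0.358) in Wnt1 vs control by edgeR. The 15 escorts and importers that carry new ribosomal proteins to the nucleus had medians of -0.01, -0.05 and -0.01 in Wnt1 vs control, Wnt1_KP6 vs control and Wnt1_KP6 vs Wnt1. By edgeR or DESeq2 0 were called. At an unadjusted p under 0.05 by edgeR there were 0, 1 (6.67%) and 0, against the same shares of all genes (11.2%, 15.8% and 2.76%). GRWD1, a histone-binding factor that escorts RPL3, had 48.4, 66.6 and 63.6 CPM in the libraries labelled Wnt1_KP6, 46.1, 61.3 and 57.6 in those labelled Wnt1 and 36.1, 47.4 and 50.3 in control, at 0.30 ± 0.17 (adjusted p = 0.552) in Wnt1 vs control and 0.42 ± 0.17 (adjusted p = 0.283) in Wnt1_KP6 vs control by edgeR. Within each replicate number both plasmid groups lay above control for GRWD1. AAMP, HGH1, IPO7 and TSR2 lay at -0.21 to 0.14 (lowest adjusted p = 0.495) in Wnt1 vs control.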
